A study of Mus musculus with 4 samples.

Results

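The genes described here are 36 genes of antioxidant defence and targets of the transcription factor NRF2, taken by symbol from a table of 46095 gene symbols. All 36 were in the table and all 36 passed the filter on low counts, among 17169 genes tested. The study profiled total RNA of the colon in C57BL/6 mice aged 21 days after birth. Of the libraries, 2 are of wild type mice (WT), and 2, called Esr2-KO, have the genotype Esr2-/-, that is, loss of the gene of estrogen receptor β. The series' design text speaks of triplicates, and 2 libraries of each genotype were analysed here. The labels give neither the knockout allele nor the colon segment, and nothing in them tells if 1 animal or several gave the RNA of a genotype. A p-value here thus covers only the variation among these libraries, some of which may be technical.

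NRF2, encoded by Nfe2l2, is held at a low level by KEAP1, which hands it to a ubiquitin ligase. When electrophiles or oxidants modify KEAP1, NRF2 accumulates, pairs with small MAF proteins and binds antioxidant response elements near genes of detoxification, glutathione synthesis, thiol reduction and NADPH supply. Peroxides are then removed by glutathione peroxidases, peroxiredoxins and catalase, superoxide by superoxide dismutases, and the spent thiols are reduced again with NADPH. In colon these enzymes act in an epithelium exposed to bacterial products and to oxidants made by its own NADPH oxidases.

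The 4 libraries held 30826790 to 33709643 counts. Digestive enzyme genes of the pancreas took 19.7% of the counts of Esr2-KO 2 and 0.0174% to 0.0966% of the others. The summed level of 14 acinar markers was 149, 177, 836 and 201918 CPM (counts scaled to a common library size with TMM factors) in WT 1, WT 2, Esr2-KO 1 and Esr2-KO 2, with Prss2 at 0 in all of them. Esr2-KO 2 stood far apart in this, so results without it are given for some genes, among them each named gene whose call ended without it. Genes for which none is given moved as well, some toward 0 and some away from it. For example, without Esr2-KO 2 the log2 fold change of Nfe2l2 went from -0.25 to -0.1 and that of Gclc from -0.44 to -0.48. Esr2 itself was barely read, with 21 and 13 counts in WT against 6 and 16 in Esr2-KO, and counts this low did not check the labels. Markers of absorptive colonocytes summed to 10919 and 13381 CPM in the WT libraries, against 7205 and 6354 CPM in Esr2-KO (7 markers, 1 lower and 0 higher by the test). Goblet cell markers summed to 23493 and 21186 CPM against 19426 and 14732 CPM (7 markers, none past the test), and epithelial markers to 6690 and 6228 against 7129 and 7144 CPM. Macrophage markers summed to 307 to 317 CPM in all 4 libraries, smooth muscle markers to 4832 to 6261 CPM, adipocyte markers to 83.9 to 299 CPM, and erythroid markers to 14.4 and 79.1 CPM in WT against 123 and 166 CPM in Esr2-KO. The part of these differences in the results below was not tested, and in bulk tissue fewer cells of a type and less RNA per cell cannot be told apart.

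In Esr2-KO colon the transcript of the peroxiredoxin Prdx6 rose 3.3-fold and that of the quinone reductase Nqo1 fell 1.68-fold, while the other 34 genes did not pass. A gene passed at an adjusted p under 0.05 in edgeR's quasi-likelihood test, adjusted by Benjamini-Hochberg over all genes tested. Passing genes made up 2.69% of all genes tested, 1.30% higher and 1.39% lower in Esr2-KO, against 5.56% of the 36, which is 1 gene in each direction. Over all genes that was 223 higher and 239 lower, a split that library totals in place of TMM moved to 208 higher and 487 lower. The median log2 fold change was -0.07 over the 36 and 0.00 over all genes tested, with 21 of the 36 below 0 against 50.3% of all genes. At an unadjusted p under 0.05 there were 7 of the 36, against 20.6% of all genes. The libraries of the groups did not overlap in 8 genes that were higher in Esr2-KO and 14 that were lower, which is 61.1% of the 36, against 54.7% of all genes (27.0% higher, 27.7% lower). These shares lay near those of all genes, so the list as a whole gives no result about its members. Leaving out WT 1 ended both calls (edgeR adjusted p = 0.0603 for Prdx6 and 0.0952 for Nqo1).

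**Figure D1:**
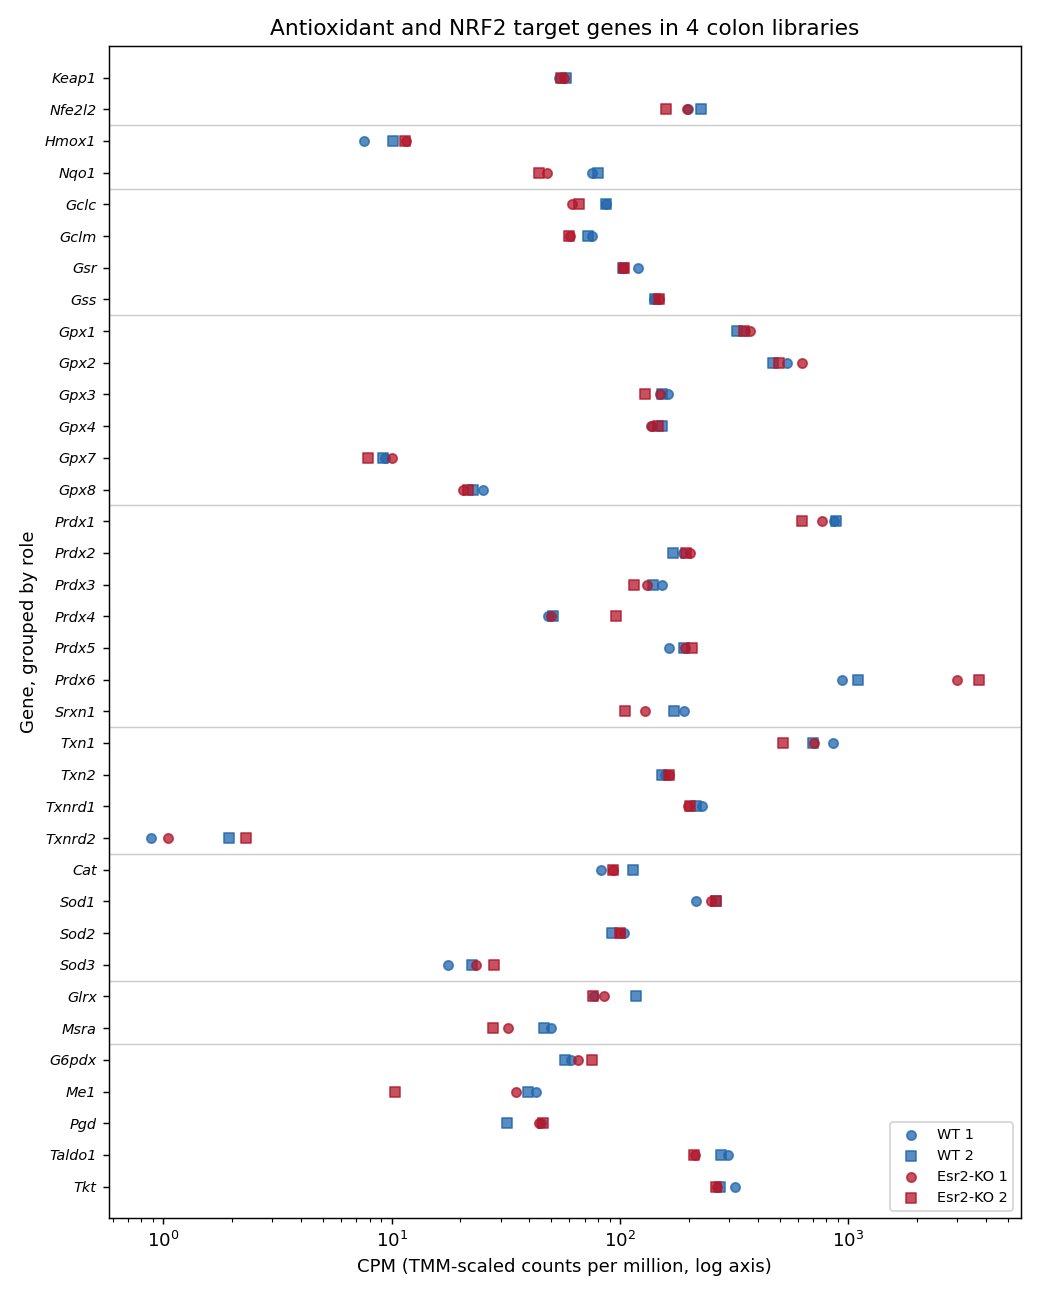
Level of each of the 36 genes in each library, as TMM-scaled CPM on a log axis, with genes grouped by role and separated by grey lines; blue marks WT, red Esr2-KO, circles replicate 1 and squares replicate 2. Prdx6 sits at 935 and 1097 CPM in the WT libraries, against 2975 and 3730 CPM in Esr2-KO, while most genes have their 4 points close together.

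Prdx6 encodes a peroxiredoxin with a single catalytic cysteine that reduces phospholipid hydroperoxides and also has phospholipase activity. Its gene lies on the minus strand of chromosome 1 from 161240112 to 161251219 (GRCm38, GENCODE M21). Its level was 935 CPM in WT 1, 1097 CPM in WT 2, 2975 CPM in Esr2-KO 1 and 3730 CPM in Esr2-KO 2. Both Esr2-KO libraries lay far above both WT libraries, and the gap between the groups was larger than the spread within either. The log2 fold change came to 1.72 ± 0.25 (SE, n = 2 per group), at an edgeR adjusted p of 0.0265. Leaving out Esr2-KO 2, where acinar markers were high, the log2 fold change was 1.56 (edgeR adjusted p = 0.0126). Scaling by library totals alone gave 1.54 and ended the call (edgeR adjusted p = 0.0552). A near-identical copy, Prdx6b, aligned over 1444 bases at 90.1% identity and had 0 counts in every library.

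The other 5 peroxiredoxins did not pass, with 0 at an unadjusted edgeR p under 0.05 and 0 called by DESeq2, against 20.6% and 10.2% of all genes. Prdx1, an abundant cytosolic enzyme, stood at 867 and 885 CPM in WT against 768 and 629 CPM in Esr2-KO, lower in both Esr2-KO libraries without passing, and 2.8% of the reads of Prdx1 and its processed pseudogenes were assigned to the pseudogenes. Prdx3, which acts in mitochondria, stood at 152 and 139 CPM against 131 and 115 CPM. The groups of Prdx1 and Prdx3 did not overlap, and both lay lower in Esr2-KO. Prdx2, abundant in red blood cells, stood at 189 and 170 CPM against 202 and 194 CPM, beside the erythroid marker sums given above, whose part was not tested. Prdx5, found in mitochondria, peroxisomes and cytosol, stood at 164 and 190 CPM against 193 and 206 CPM. For these 2 the groups did not overlap either, with Esr2-KO on the higher side, although the log2 fold change of Prdx2 was below 0 when library totals were used. Groups stood apart in 54.7% of all genes tested, so standing apart is common here. Prdx2 shares exon bases with Junb and Rnaseh2a on the opposite strand, and Prdx5 shares 19.1% of its exon bases with Trmt112. Whether counting used strand is not stated, so reads of such pairs cannot be told apart.

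Prdx4, the peroxiredoxin of the endoplasmic reticulum, stood at 48.5 and 50.8 CPM in WT, 49.6 CPM in Esr2-KO 1 and 96.1 CPM in Esr2-KO 2. Esr2-KO 2 alone was high, and the other Esr2-KO library lay between the WT libraries. The log2 fold change was 0.55 ± 0.28 (n = 2 per group, edgeR adjusted p = 0.323), and it was 0.00 without Esr2-KO 2. With Esr2-KO 2 as the lone Esr2-KO library it was 0.96 (edgeR adjusted p = 0.00288). Acinar markers were high in the same library, at 201918 CPM.

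Levels were also expressed per kilobase of annotated exon, with exons pooled over all transcripts of a gene. On this scale Prdx6 took 26.2% and 29.2% of the summed peroxiredoxin level in WT and 54.3% and 61.3% in Esr2-KO. Prdx1 took 38.3% and 37.2% in WT and 22.1% and 16.3% in Esr2-KO. In WT the level of Prdx1 (285 and 291 CPM per kb) was above that of Prdx6 (195 and 228 CPM per kb). In Esr2-KO the order was the other way, with Prdx6 at 619 and 776 and Prdx1 at 252 and 207 CPM per kb. Of all 36 genes, thioredoxin Txn1 had the highest level per kilobase in both WT libraries (812 and 665 CPM per kb), and Prdx1 came next. Gpx1 (245 and 225 CPM per kb) and Prdx6 followed in WT, where their libraries overlapped. In Esr2-KO 1 Txn1 (675 CPM per kb) was still above Prdx6, and in Esr2-KO 2 Prdx6 was above Txn1 (493 CPM per kb). Exon lengths come from GENCODE M21, which need not be the annotation used for counting. Pooled over all transcripts they were 3043 bases for Prdx1, 4804 for Prdx6 and 1051 for Txn1, and need not match the transcripts expressed here. By CPM alone Prdx6 (935 and 1097) was above Prdx1 (867 and 885) in WT too, so the order between genes depends on these lengths.

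Srxn1 encodes sulfiredoxin, which restores peroxiredoxins whose cysteine has been overoxidized. It stood at 190 and 172 CPM in the WT libraries, against 128 and 105 CPM in Esr2-KO. Both Esr2-KO libraries were below both WT libraries, with a log2 fold change of -0.64 ± 0.14 (n = 2 per group), but the edgeR adjusted p was 0.0714.

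**Figure D2:**
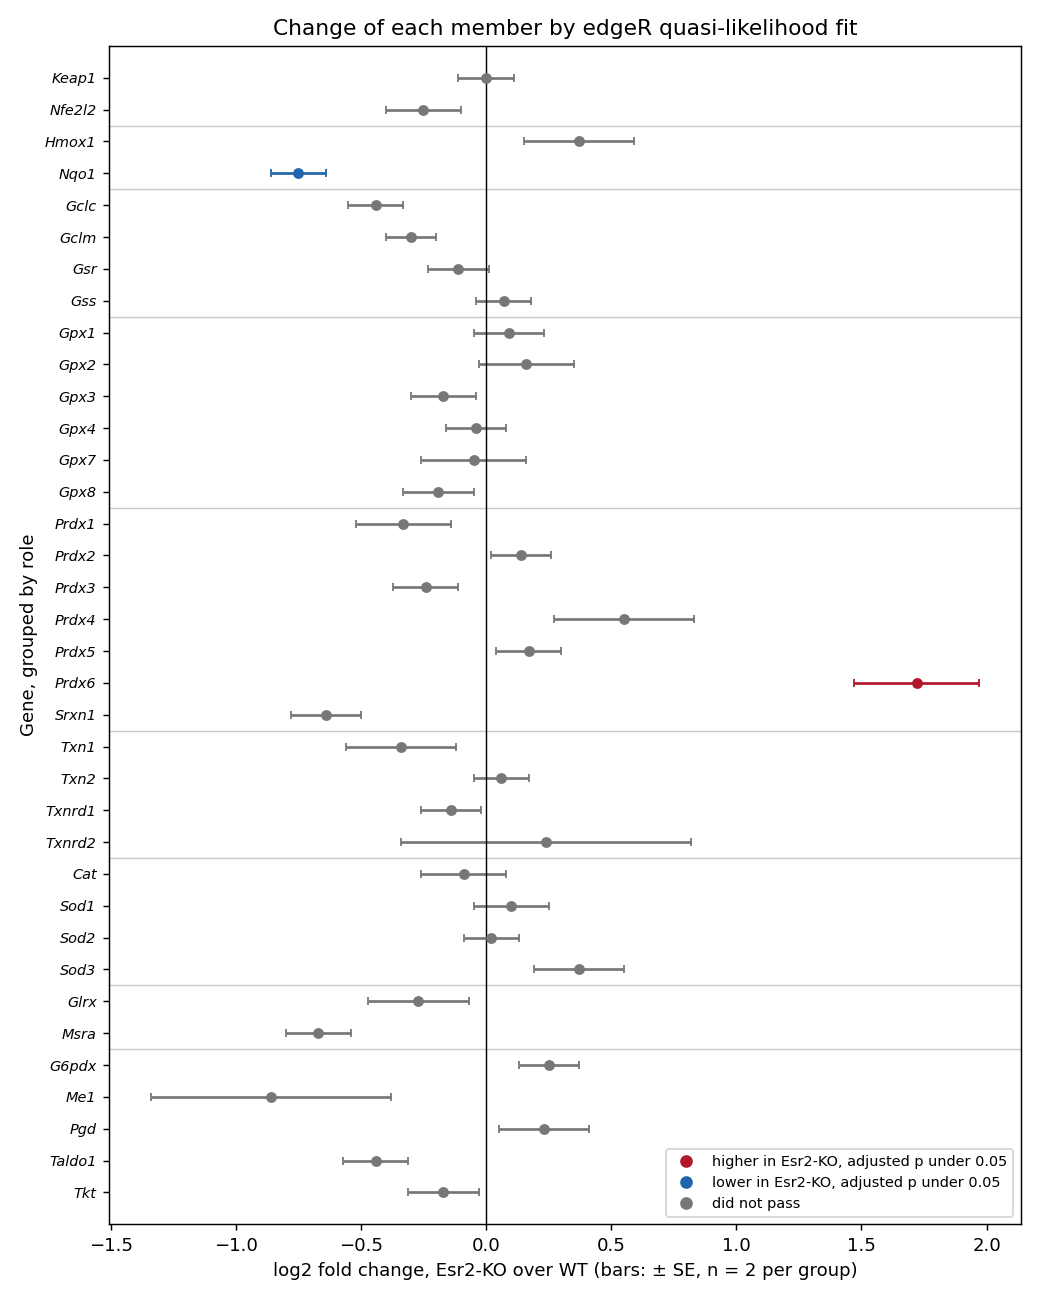
Log2 fold change of Esr2-KO over WT for each gene, with bars of ± 1 SE and n = 2 per group, genes grouped by role; red and blue mark the genes past an adjusted p of 0.05. Prdx6 at 1.72 lies apart on the right, Nqo1 at -0.75 passed on the left, and Me1, at -0.86 with an SE of 0.48, did not pass.

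The 2 regulators did not pass, with 0 of 2 at an unadjusted edgeR p under 0.05 and 0 called by DESeq2, against 20.6% and 10.2% of all genes. Nfe2l2 stood at 198 and 225 CPM in WT against 197 and 159 CPM in Esr2-KO, which gave a log2 fold change of -0.25 ± 0.15 (n = 2 per group, edgeR adjusted p = 0.403). Keap1 stood at 54.3 and 58.1 CPM against 57.0 and 55.4 CPM, which gave a log2 fold change of 0.00 ± 0.11 (n = 2 per group, edgeR adjusted p = 0.999). Keap1 shares 10.9% of its exon bases with the antisense gene Gm16754. Its libraries overlapped fully, and those of Nfe2l2 were separated by less than the spread within each group. NRF2 is controlled mainly through the stability of its protein, which these RNA values do not measure.

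Nqo1, which reduces quinones with NADPH or NADH and is among the best-known NRF2 targets, lies on the minus strand of chromosome 8 from 107388225 to 107403206. It stood at 75 and 79.9 CPM in the WT libraries, against 47.7 and 44.3 CPM in Esr2-KO. The libraries of each group lay close together and the groups did not overlap. The log2 fold change was -0.75 ± 0.11 (n = 2 per group, edgeR adjusted p = 0.0296). The call ended also without WT 2 (log2 fold change -0.69, edgeR adjusted p = 0.0935) and without Esr2-KO 2 (-0.69, edgeR adjusted p = 0.0579). Hmox1, the heme oxygenase that breaks heme down to biliverdin, iron and carbon monoxide, stood at 7.6 and 10.1 CPM in WT against 11.5 and 11.4 CPM in Esr2-KO. Its log2 fold change was 0.37 ± 0.22 (n = 2 per group, edgeR adjusted p = 0.381), on the other side of 0 from Nqo1.

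Of the 4 genes of glutathione synthesis and recycling 0 passed, with 2 at an unadjusted edgeR p under 0.05 and 1 called by DESeq2 (Gclc). Over all genes 20.6% had such a p and DESeq2 called 10.2%, and 4 genes are too few to set against these shares. Gclc, the catalytic subunit of glutamate-cysteine ligase, which makes the first and limiting step, stood at 86.8 and 86.7 CPM in the WT libraries, against 61.9 and 66.2 CPM in Esr2-KO. Gclm, its modifier subunit, stood at 75.6 and 72.6 CPM against 60.6 and 59.9 CPM. In both subunits the Esr2-KO libraries were below the WT libraries, with log2 fold changes of -0.44 ± 0.11 and -0.30 ± 0.10 (n = 2 per group) and edgeR adjusted p values of 0.0858 and 0.178. Gss, the synthetase of the second step, had 141 and 142 CPM in WT, against 148 CPM in both Esr2-KO libraries. Gsr, which reduces oxidized glutathione, stood at 120 and 103 CPM against 103 and 104 CPM. Gss shares 6.68% of its exon bases with Acss2 on the opposite strand.

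Repair and carbohydrate enzymes included other genes with lower levels in both Esr2-KO libraries. Msra, which reduces oxidized methionine in proteins, stood at 49.6 and 46.4 CPM in WT against 32.4 and 27.8 CPM in Esr2-KO. The groups did not overlap, and the log2 fold change of -0.67 ± 0.13 (n = 2 per group) had an edgeR adjusted p of 0.0554. Glrx, a glutaredoxin that removes glutathione from protein thiols, stood at 76.7 and 118 CPM against 85 and 76.1 CPM, with WT 2 alone high and a log2 fold change of -0.27 ± 0.20 (n = 2 per group, edgeR adjusted p = 0.499). Taldo1, transaldolase of the pentose phosphate pathway, stood at 297 and 276 CPM against 212 and 210 CPM, which gave a log2 fold change of -0.44 ± 0.13 (n = 2 per group, edgeR adjusted p = 0.121). DESeq2, which called 10.2% of the genes for which it gave an adjusted p, called 6 of the 36: Prdx6 and Nqo1, and with them Srxn1 (adjusted p = 0.0013), Msra (0.0022), Taldo1 (0.00865) and Gclc (0.0268), each of these 4 lower in Esr2-KO.

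The remaining NADPH genes went different ways. Tkt, transketolase, stood at 320 and 275 CPM in the WT libraries, against 265 and 262 CPM in Esr2-KO. G6pdx, which opens the pentose phosphate pathway and makes its first NADPH, stood at 61.0 and 57.6 CPM against 65.6 and 75.1 CPM, which gave a log2 fold change of 0.25 ± 0.12 (n = 2 per group, edgeR adjusted p = 0.299). Pgd, which makes the next NADPH, stood at 44.9 and 32.0 CPM against 44.1 and 46.1 CPM, with WT 2 alone low. G6pdx shares 13.6% of its exon bases with Ikbkg on the opposite strand. Me1, the cytosolic malic enzyme, which also supplies NADPH for fatty acid synthesis, stood at 42.8 and 39.5 CPM in WT, 35 CPM in Esr2-KO 1 and 10.3 CPM in Esr2-KO 2. Both Esr2-KO libraries were below WT, but the one with pancreatic transcripts was by far the lower. Its log2 fold change of -0.86 ± 0.48 (n = 2 per group, edgeR adjusted p = 0.366) became -0.23 without Esr2-KO 2 and -1.99 without Esr2-KO 1 (edgeR adjusted p = 0.609 and 0.000115). Adipocyte markers, from another tissue rich in this enzyme, summed to 124 CPM in WT 1, 299 CPM in WT 2, 236 CPM in Esr2-KO 1 and 83.9 CPM in Esr2-KO 2. The part of these cells in the level of Me1 was not tested.

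**Figure D3:**
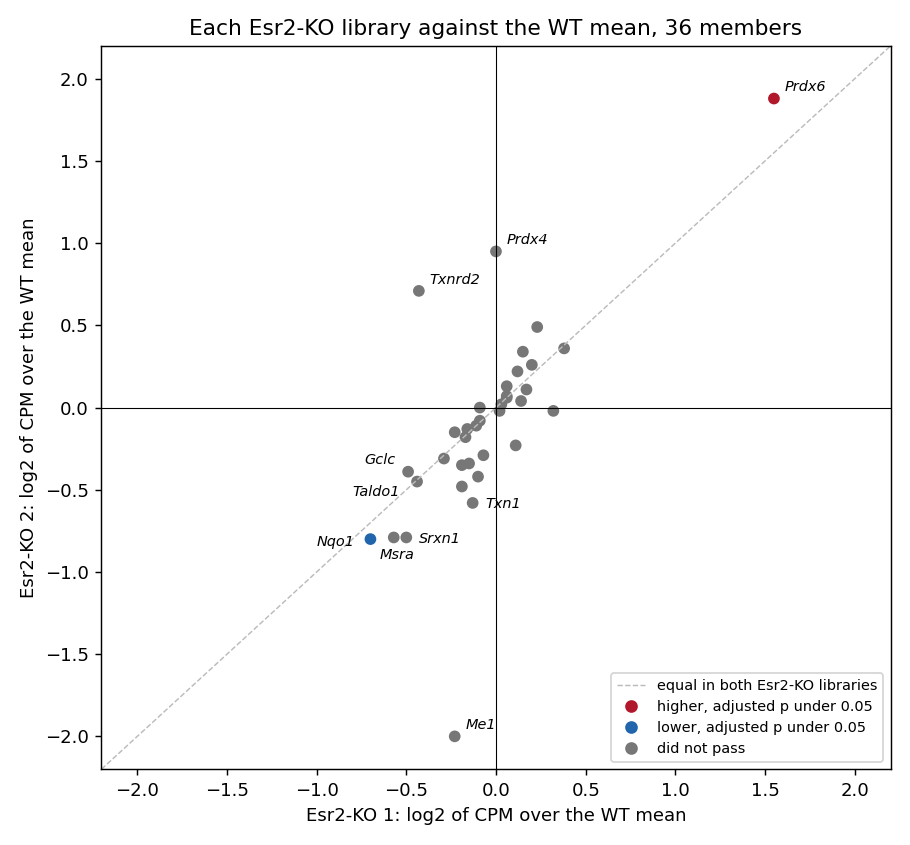
Log2 of the level in Esr2-KO 1 (x axis) and Esr2-KO 2 (y axis) over the WT mean for the 36 genes, with a dashed line where both libraries are equal. Prdx6 lies at 1.55 and 1.88, Nqo1 at -0.70 and -0.80, and Prdx4 (0.00 and 0.95), Me1 (-0.23 and -2.0) and Txnrd2 (-0.43 and 0.71) lie far from the line.

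The promoters of 5 of the genes are printed as a selection. Nqo1, Srxn1 and Gclm are among the genes lower in both Esr2-KO libraries. Prdx1 and Me1, lower in both as well, hold TGACTCAGC, a full form of the antioxidant response element. Other lower genes with a searched promoter, such as Taldo1, are not printed. Nor are Pgd, Sod1 and G6pdx, which hold the core of the element and had log2 fold changes above 0. RefSeq windows on GRCm38.p6 of 300 bases, 250 before to 50 after a start, were matched by symbol for 30 of the 36 genes, in 38 windows. Prdx6, Gclc, Gsr, Hmox1, Msra and Sod3 had no window, so their promoters were not searched and the shares below do not cover them. Both strands were searched for TGACNNNGC, the core of the element, for TGACTCAGC, for the related TGAGTCAGC, and for TGACTCA, the AP-1 site, which overlaps both of the longer forms. Capitals mark the matches, whichever strand they lie on, and bases past the start are left out save the 3 that complete the match of Me1. All run 5′ to 3′ along the gene.
Nqo1: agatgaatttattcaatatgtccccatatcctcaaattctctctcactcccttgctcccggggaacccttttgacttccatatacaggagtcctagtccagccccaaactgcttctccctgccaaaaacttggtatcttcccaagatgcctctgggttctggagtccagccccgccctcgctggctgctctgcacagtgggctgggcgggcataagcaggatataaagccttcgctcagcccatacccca
Srxn1: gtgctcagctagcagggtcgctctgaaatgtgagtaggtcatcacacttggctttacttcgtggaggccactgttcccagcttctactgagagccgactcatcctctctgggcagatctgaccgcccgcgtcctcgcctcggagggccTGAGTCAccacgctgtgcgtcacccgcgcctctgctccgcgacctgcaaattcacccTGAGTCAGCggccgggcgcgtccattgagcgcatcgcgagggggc
Prdx1: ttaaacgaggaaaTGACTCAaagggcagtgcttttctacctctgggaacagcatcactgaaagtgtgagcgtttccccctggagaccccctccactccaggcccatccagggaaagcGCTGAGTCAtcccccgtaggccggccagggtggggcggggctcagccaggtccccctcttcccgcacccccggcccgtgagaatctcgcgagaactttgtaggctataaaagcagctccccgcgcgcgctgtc
Me1: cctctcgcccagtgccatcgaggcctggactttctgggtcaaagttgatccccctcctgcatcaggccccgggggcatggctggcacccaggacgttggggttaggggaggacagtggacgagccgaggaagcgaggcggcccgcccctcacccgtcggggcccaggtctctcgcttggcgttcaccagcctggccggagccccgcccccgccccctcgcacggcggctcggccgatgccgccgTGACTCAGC
Gclm: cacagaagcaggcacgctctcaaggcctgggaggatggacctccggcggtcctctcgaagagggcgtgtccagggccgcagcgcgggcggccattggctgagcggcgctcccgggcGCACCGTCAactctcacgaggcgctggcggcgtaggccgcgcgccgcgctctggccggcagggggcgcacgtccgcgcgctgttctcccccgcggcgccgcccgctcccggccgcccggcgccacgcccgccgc

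The window of Nqo1 (chr8:107403206-107403455, minus strand) held none of these motifs, and bases farther upstream were not searched. That of Srxn1 (chr2:152105274-152105523, plus strand) held TGACTCA on the minus strand at -102 and TGAGTCAGC on the plus strand at -45, counted from the start, and a core match past the start that is not printed. In Prdx1 (chr4:116685349-116685598, plus strand) TGACTCA lay at -237 and TGACTCAGC, on the minus strand, at -133. In Me1 (chr9:86695912-86696164, minus strand) TGACTCAGC spanned the start, and in Gclm (chr3:122245307-122245556, plus strand) TGACNNNGC lay on the minus strand at -134. The core TGACNNNGC was in 23.7% of the 38 windows and 12.4% of all 32851 windows of the same length. It occurred in 9 genes, of which 6 (Nfe2l2, Srxn1, Gclm, Prdx1, Me1 and Txnrd1) had log2 fold changes below 0 and 3 (Pgd, Sod1 and G6pdx) above 0. The narrower TGACTCAGC was in 2 of the 38 windows (5.26%, against 0.454% of all) and TGAGTCAGC in 1 (2.63% against 0.414%). TGACTCA was in 5 (13.2% against 5.2%), which belong to 4 genes, as overlapping windows of Glrx hold the same site. The list was chosen to hold NRF2 targets, so a higher share of the element is built into it and is no result. The palindrome of the consensus estrogen response element (GGTCA and TGACC spaced by NNN) was in none of the 38, which hold no window of Prdx6. It was in 23 of all 32851 windows (0.07%), so rare that its absence from 38 windows is no result. A match describes the letters only and is no evidence of binding.

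The glutathione peroxidase family, named for the reduction of peroxides with glutathione, was represented by 6 genes. Of these 0 passed, 0 had an unadjusted edgeR p under 0.05 and 0 were called by DESeq2, against 2.69%, 20.6% and 10.2% of all genes. Gpx1, the ubiquitous cytosolic enzyme, stood at 352 and 324 CPM in WT against 372 and 349 CPM in Esr2-KO, and Gpx4, which protects membrane lipids from peroxidation and cells from ferroptosis, at 138 and 153 against 137 and 146 CPM. Gpx2, the form typical of gut epithelium, stood at 537 and 468 CPM against 627 and 494 CPM. It is the only one of the 36 on the chromosome of Esr2, chromosome 12, and lies 615073 bases from it. In these 3 genes the groups overlapped. Gpx3, a secreted form, stood at 162 and 152 CPM in the WT libraries, against 149 and 128 CPM in Esr2-KO, which gave a log2 fold change of -0.17 ± 0.13 (n = 2 per group, edgeR adjusted p = 0.494). Gpx7 and Gpx8, which lie in the endoplasmic reticulum, stood at 9.36 and 9.17 against 10 and 7.89 CPM and at 25.1 and 22.7 against 20.5 and 21.5 CPM. Gpx8 had a log2 fold change of -0.19 ± 0.14 (n = 2 per group, edgeR adjusted p = 0.486).

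The thioredoxin system reduces peroxiredoxins and other protein disulfides with NADPH, and 0 of its 4 genes passed, had an unadjusted edgeR p under 0.05 or were called by DESeq2. Over all genes these shares were 2.69%, 20.6% and 10.2%. Txn1, cytosolic thioredoxin, stood at 854 and 699 CPM in WT against 709 and 518 CPM in Esr2-KO, which gave a log2 fold change of -0.34 ± 0.22 (n = 2 per group, edgeR adjusted p = 0.437). Txnrd1, its reductase, stood at 229 and 214 CPM against 199 and 202 CPM, which gave a log2 fold change of -0.14 ± 0.12 (n = 2 per group, edgeR adjusted p = 0.545). WT 2 and Esr2-KO 1 overlapped for Txn1, while the groups of Txnrd1 stood apart by less than the spread within WT. The mitochondrial pair differed in depth, with Txn2 at 158 and 153 against 163 CPM in both Esr2-KO libraries, and Txnrd2 at 0.881 and 1.95 against 1.05 and 2.31 CPM. Txnrd2 had 32 to 68 counts per library, whereas the other 35 genes had 208 to 101770. Its groups overlapped.

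Catalase and the superoxide dismutases did not pass either, with 0 of 4 at an unadjusted edgeR p under 0.05 and 0 called by DESeq2, against 20.6% and 10.2% of all genes. Cat, which splits hydrogen peroxide in peroxisomes, stood at 82.7 and 114 CPM in the WT libraries, against 92.7 and 92.9 CPM in Esr2-KO. Sod1, the copper-zinc enzyme of the cytosol, stood at 216 and 263 against 251 and 263 CPM (log2 fold change 0.10 ± 0.15, n = 2 per group, edgeR adjusted p = 0.747). Sod2, the manganese enzyme of mitochondria, stood at 104 and 92.6 against 100 and 99.5 CPM. Of the reads of Sod1 and its pseudogene, 1.33% were assigned to the pseudogene. For these 3 genes the Esr2-KO libraries lay within the WT range or at its edge. Sod3, the secreted form bound to matrix, stood at 17.6 and 22.5 against 23.4 and 28.2 CPM, which gave a log2 fold change of 0.37 ± 0.18 (n = 2 per group, edgeR adjusted p = 0.305), higher in both Esr2-KO libraries.

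Among the 36, 15 genes are textbook NRF2 targets: Nqo1, Hmox1, Gclc, Gclm, Gsr, Srxn1, Txnrd1, Txn1, Prdx1, Gpx2, G6pdx, Pgd, Me1, Taldo1 and Tkt. This grouping was made after the values were seen, so its counts describe it and support nothing. It leaves out Prdx6, the only one of the 36 that passed higher, so its count of 0 genes passing higher was fixed by that choice. The median log2 fold change of the 15 was -0.30, with 11 below 0, against 50.3% of all genes tested. By edgeR 1 passed lower, 0 passed higher and 5 had an unadjusted p under 0.05, against 20.6% of all genes. The groups stood apart in 9 on the lower side and 2 on the higher side, which is 73.3% of the 15, against 54.7% of all genes. The medians against the WT mean were -0.17 in Esr2-KO 1 and -0.31 in Esr2-KO 2. The 6 selenoproteins (Gpx1 to Gpx4, Txnrd1 and Txnrd2) had a median of 0.02, the 4 mitochondrial members one of 0.04 and the 3 of the endoplasmic reticulum one of -0.05. In these 3 groupings 0 genes passed and 0 had an unadjusted edgeR p under 0.05.

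Other genes of the pathway were read from 5 lists, whose counts stand beside 2.69% of all genes past the edgeR test, 20.6% at an unadjusted edgeR p under 0.05, 54.7% with groups apart and 10.2% called by DESeq2. Of 16 partners and controllers of NRF2, 1 rose and 0 fell (DESeq2 called 2 higher and 1 lower), with a list median of 0.01. An unadjusted edgeR p under 0.05 was found for 4 of the 16, and the groups stood apart in 5 on the higher side and 3 on the lower side. Nfe2l3, a related factor that also pairs with small MAF proteins, stood at 1.98 and 2.36 CPM in WT against 5.94 and 6.41 CPM in Esr2-KO, which gave a log2 fold change of 1.51 ± 0.27 (n = 2 per group, edgeR adjusted p = 0.0456). Its call ended without WT 1, WT 2 or Esr2-KO 2 (edgeR adjusted p = 0.219, 0.108 and 0.0797). Of 33 tested genes among 34 other NRF2-linked genes, 1 fell and 0 rose (DESeq2 called 3 lower and 4 higher), with a median of 0.16, on the other side of 0 from the 36. There were 13 of the 33 at an unadjusted edgeR p under 0.05. The groups stood apart in 15 on the higher side and 7 on the lower side, which is 66.7% of the 33. Aldh1a1, a retinaldehyde dehydrogenase that also has other regulators, stood at 168 and 235 CPM against 54.4 and 47.2 CPM, which gave a log2 fold change of -1.99 ± 0.19 (n = 2 per group, edgeR adjusted p = 0.0141), and it passed under every alternative tried.

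Among 17 tested of 20 oxidant sources 1 rose and 1 fell (DESeq2 called 1 higher and 4 lower), with a median of -0.18. At an unadjusted edgeR p under 0.05 there were 5 of the 17, and the groups stood apart in 52.9% of them. Maob, a mitochondrial amine oxidase that releases hydrogen peroxide, stood at 25.8 and 29.3 CPM in the WT libraries, against 45.0 and 46.0 CPM in Esr2-KO, which gave a log2 fold change of 0.73 ± 0.13 (n = 2 per group, edgeR adjusted p = 0.0438). The related Maoa, far more abundant, went the other way, with 998 and 1186 CPM in WT against 853 and 716 CPM in Esr2-KO. It did not pass edgeR, and DESeq2 called it lower. Duoxa2, the maturation factor of the epithelial dual oxidase DUOX2, stood at 41.6 and 37.6 against 22.0 and 14.9 CPM, which gave a log2 fold change of -1.10 ± 0.20 (n = 2 per group, edgeR adjusted p = 0.047). Neither call held without WT 1 or without WT 2 (edgeR adjusted p = 0.231 and 0.0883 for Maob, 0.189 and 0.0985 for Duoxa2), and that of Maob ended also without Esr2-KO 2 and with library totals (0.0592 and 0.174). Of 19 tested among 21 other thiol and repair enzymes 0 passed, 2 had an unadjusted edgeR p under 0.05 and DESeq2 called 0. Their median was 0.04, and the smallest p belonged to Oplah (0.52 ± 0.17, n = 2 per group, edgeR adjusted p = 0.167). Ggt1, which breaks down extracellular glutathione, stood at 2.42 and 9.08 CPM in WT, 8.6 CPM in Esr2-KO 1 and 48.7 CPM in Esr2-KO 2, the library with acinar markers. Its log2 fold change was 2.31 ± 0.87 (n = 2 per group, edgeR adjusted p = 0.203), and it ranged over the alternatives from 0.58 without Esr2-KO 2 (edgeR adjusted p = 0.744) to 3.58 without WT 2 (0.174). Ggt1 passed without Esr2-KO 1 (3.09, edgeR adjusted p = 0.00316), without a low-count filter (2.32, edgeR adjusted p = 0.00146) and with the replicate number as a blocking term (2.14, edgeR adjusted p = 0.0203). Of 14 genes of selenoprotein synthesis and other selenoproteins 0 passed, 2 had an unadjusted edgeR p under 0.05 and DESeq2 called 0. Their median was 0.04, and the smallest p values belonged to Secisbp2l (-0.41 ± 0.12) and Selenok, listed as Selk (-0.37 ± 0.11, n = 2 per group, edgeR adjusted p = 0.121 and 0.132).

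**Figure D4:**
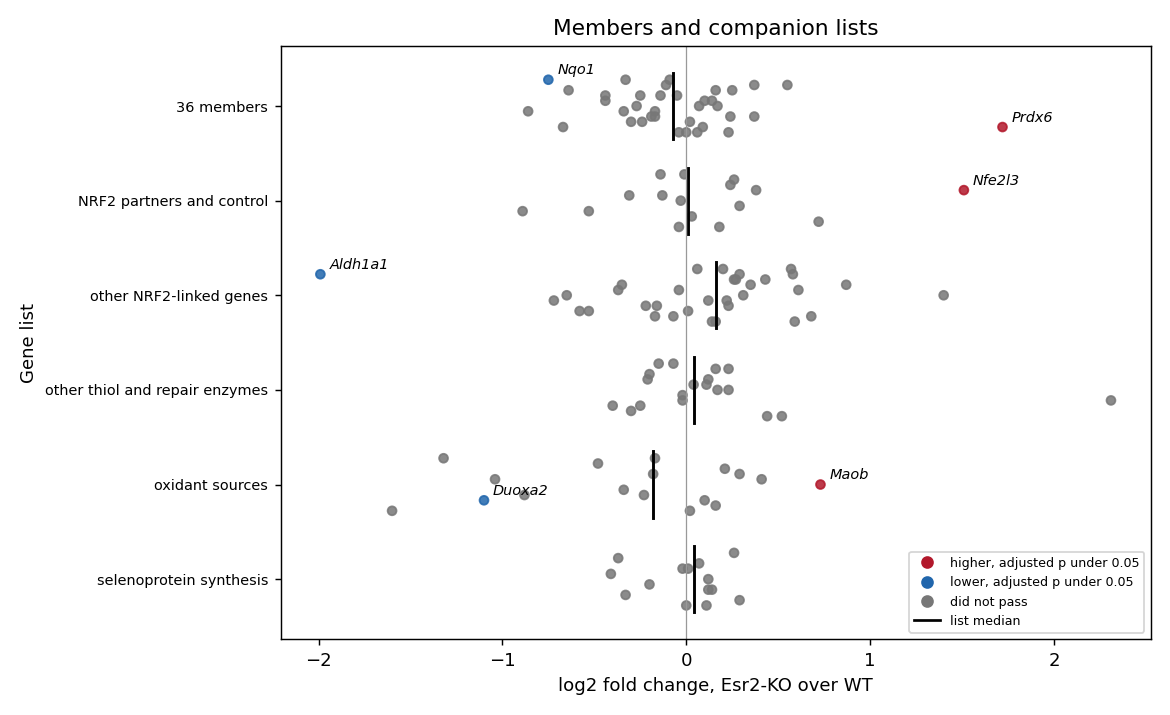
Log2 fold change of Esr2-KO over WT for the 36 genes and for each of the 5 other lists (1 point per tested gene, vertical scatter for legibility, black bars for list medians). Medians lie between -0.18 and 0.16, and 6 named points passed: Prdx6, Nfe2l3 and Maob higher, Nqo1, Aldh1a1 and Duoxa2 lower.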

How the data were processed

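The submitters' processing notes name HISAT2 and mm10. Libraries were directional and depleted of ribosomal RNA, per the labels' protocols. As deposited, the table holds raw counts, 1 row per symbol. The sources used here give no counting program, annotation or strand setting. Genes were kept with filterByExpr (minimum count 10, minimum total 15), scaled by TMM and fitted in edgeR 4.0.16 under R 4.3.3 (glmQLFit, glmQLFTest, two-sided, 2 residual degrees of freedom), with Benjamini-Hochberg adjustment over 17169 genes. Standard errors derive from the F statistic. The common biological coefficient of variation was 0.233, and 3 counts correspond to 0.0826 to 0.114 CPM. The procedure was run on counts simulated with this same coefficient for every gene and no outlying library. That run does not show how the test behaves with a library like Esr2-KO 2.

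The 36 genes and the lists were chosen with earlier results of these data known. Log2 fold changes were printed for genes past the threshold, for up to 2 others per role with the smallest p, and for up to 4 passing or otherwise 2 leading genes of each other list. Me1 was added after its values were seen. Near-identical copies were sought with blastn (90% identity over at least 50% of the coding length) among GENCODE M21 transcripts. Alternatives were other scalings and filters, DESeq2 1.42.0, limma-voom (limma 3.58.1), a block on replicate number, leaving out each library, and 33 pancreatic enzyme genes left out.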

Additional observations from a re-analysis of the deposited data

How the results depend on the processing

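The count of the 36 genes past the threshold, 2, was 1 with library totals, 5 without a low-count filter, 6 with DESeq2 and 1 with a replicate block, and 0 to 6 when a library was left out (0 without WT 1, 1 without WT 2 or Esr2-KO 2, 6 without Esr2-KO 1, where Me1, Prdx4, Srxn1 and Msra passed as well). The count over all genes, 462, was 695, 1916 and 1693 under the first 3 of these and 165 to 1804 with a library left out. Library totals moved the median of all genes to -0.17 and that of the 36 to -0.23, so relative to that shift the 36 stayed near their place. With a library left out the median of the 36 was -0.09 to -0.01. The replicate numbers pair nothing in the labels, and differences between replicates 1 and 2 in the 2 genotypes correlated at -0.06 across genes. With the replicate block the calls of Prdx6 (edgeR adjusted p = 0.0558), Nfe2l3 (0.0686) and Maob (0.0705) ended, those of Nqo1 (0.0471), Aldh1a1 (0.0196) and Duoxa2 (0.0404) did not, and Ggt1 passed newly (0.0203), while 490 of all genes passed. Keap1, at 0.00, turned to the other side of 0 at 0.07 without WT 2 and 0.03 without Esr2-KO 2 (range with a library left out -0.05 to 0.07), at 0.01 without a filter or without pancreatic enzyme genes, and at 0.00 with RLE factors, DESeq2, limma-voom or the block. Sod1 turned to -0.07 with library totals and to -0.04 without WT 1 (range with a library left out -0.04 to 0.26), and Glrx to 0.09 without WT 2 (range -0.55 to 0.09). DESeq2 took in each gene with at least 1 count. Of the other single values for the genes named, 322 kept their direction and side of the threshold, 17 no longer passed and 14 passed newly. Where a call changed and no value above shows why, the cause was not tested. Without a library, 1 group rests on a lone sample, assumed to vary like the others. Of the 36, Txnrd2 had the fewest counts, and the size of difference detectable at each depth was not tested.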

Other observations

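Genes around Prdx6 were counted after its values were seen. Of 10 tested genes within 500000 bases of it on chromosome 1, 0 passed edgeR's quasi-likelihood test, 0 had an unadjusted p under 0.05 and DESeq2 called 0. Over all genes these shares were 2.69%, 20.6% and 10.2%. Whether the rise was confined to Prdx6 was not tested. Their log2 fold changes ran from -0.64 for Cenpl, the gene of a centromere protein, to 1.15 for Serpinc1, the gene of antithrombin, which had at most 1.25 CPM in any library. Klhl20, the gene of a ubiquitin ligase adaptor, had 16.3 and 16.4 CPM in the WT libraries, against 17.2 and 14.7 CPM in Esr2-KO.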
